A study of Mus musculus with 14 samples.

Results

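Long-term hematopoietic stem cells (LT-HSCs) that had grown for 16 weeks in irradiated hosts were compared by the P-selectin (Selp) level of the cells first transplanted. The comparison set 3 Selp high-derived libraries against 3 Selp low-derived libraries, 6 of the 14 RNA-seq libraries of the series, and the libraries were chosen by their titles alone. Input cells came from C57BL/6 female mice older than 24 months and were sorted as Selp high or Selp low LT-HSCs. Of each kind, 1000 cells were given to lethally irradiated recipients aged 10 to 16 weeks. The 6 libraries were made from 5000 donor-derived CD45.2+ cells each, and cells of both groups were lineage negative, CD48-, Sca-1+, c-Kit+ and CD150+. The second sort did not gate on P-selectin, so the groups differ in the input and not in the gate. All 6 libraries share the old donors, the irradiated young hosts and the time in them. The other 8 libraries hold Selp low (4 libraries) and Selp high (4 libraries) cells taken straight from the old mice. The labels used here do not say whether each derived library came from a recipient of its own, so p-values measure the spread between libraries, which may be technical in part.

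LT-HSCs sit at the top of blood formation, divide rarely and keep the power to rebuild all blood lineages in a transplanted host. P-selectin is an adhesion receptor of activated platelets and endothelium that binds the glycoprotein PSGL-1 on white cells, and its gene is known to be expressed at higher levels as LT-HSCs age. A transplanted LT-HSC divides many times as it refills the marrow, and it meets its niche through adhesion receptors, matrix glycans and the actin cytoskeleton. Several genes described here act along that line. SUN proteins of the inner nuclear membrane are one end of the LINC bridge that ties the nucleus to the cytoskeleton, tetraspanins gather integrins at the surface, and adhesion G-protein-coupled receptors join a large outer domain to a signalling membrane part.

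Sun2, Cd151 and Adgrg7, whose values below were lower in all 3 Selp high-derived libraries than in any Selp low-derived one, are the genes the results turn on. Their promoters are shown so that the start regions of 3 genes with lower values together can be compared. Each line gives the 250 bases before the gene's start, 5′ to 3′ on the gene's strand, from RefSeq on GRCm38.p6. Capitals mark GC boxes (GGGCGG) and CCAAT boxes (CCAAT) on either strand.
Sun2: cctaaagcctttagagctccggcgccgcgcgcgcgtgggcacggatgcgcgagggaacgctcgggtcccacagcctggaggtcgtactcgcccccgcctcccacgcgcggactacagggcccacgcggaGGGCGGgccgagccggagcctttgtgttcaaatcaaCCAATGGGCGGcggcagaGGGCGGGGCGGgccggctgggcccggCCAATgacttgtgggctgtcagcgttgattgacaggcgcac
Cd151: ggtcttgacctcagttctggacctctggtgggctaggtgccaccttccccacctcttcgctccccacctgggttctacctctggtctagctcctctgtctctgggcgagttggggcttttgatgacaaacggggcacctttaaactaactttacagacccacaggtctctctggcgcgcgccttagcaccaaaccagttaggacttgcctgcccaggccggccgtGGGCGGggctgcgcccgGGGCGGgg
Adgrg7: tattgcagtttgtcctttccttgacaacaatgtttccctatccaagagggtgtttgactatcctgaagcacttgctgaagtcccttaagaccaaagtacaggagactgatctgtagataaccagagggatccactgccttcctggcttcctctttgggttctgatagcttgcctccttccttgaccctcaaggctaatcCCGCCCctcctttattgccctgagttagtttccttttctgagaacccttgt
The Sun2 window is chr15:79742537-79742786 on the minus strand and holds 4 GC boxes, 2 of which overlap by 1 base, and 2 CCAAT boxes, with 70.8% G and C. That of Cd151 is chr7:141467112-141467361 on the plus strand, the first of 2 RefSeq entries, with 2 GC boxes, no CCAAT box and 62.4% G and C. That of Adgrg7 is chr16:56795859-56796108 on the minus strand, with 1 GC box, no CCAAT box and 47.2% G and C. No window holds TATAAA. Of 32851 promoters of this length, 32.7% hold a GC box, 33.8% a CCAAT box and 12.4% TATAAA on either strand, and the median G and C content is 52.4%. The Sun2 and Cd151 windows were richer in G and C than the median promoter and that of Adgrg7 was poorer. These matches describe letters and not bound factors.

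Reads assigned to genes numbered 22374794 to 29226370 per library after transplantation. In a principal component analysis of the 6 libraries, Selp low-derived replicate 2 (94.8) stood apart on the first component (39.6% of the variance), where the other 5 lay between -60.6 and -5.4. Selp high-derived replicate 1 was at -60.6 there and at 68.8 on the second component (26.4%). Neutrophil and mast cell markers were highest in the first of these libraries, and B cell markers in another. Summed over 18 neutrophil markers, Selp low-derived replicates 1 to 3 had 3997, 15108 and 2804 CPM (read counts relative to library size after edgeR's TMM scaling) and Selp high-derived replicates 1152, 3076 and 3184 CPM. Over the 16 of 20 mast cell, basophil and eosinophil markers that were tested, the sums were 50.5, 674 and 35.9 CPM against 28.0, 22.2 and 166 CPM. Over 15 of 16 B cell markers they were 1512, 517 and 366 CPM against 468, 97.9 and 297 CPM, highest in Selp low-derived replicate 1. All 18, all 16 and all 15 of these genes were on the lower side in Selp high-derived cells, where 48.8% of all genes were. Without Selp low-derived replicate 2 the mast cell, basophil and eosinophil markers had 6 higher and 10 lower (median -0.39, from -1.81), and without both libraries that stood apart 8 and 8, where 12 of 18 neutrophil and 13 of 15 B cell markers were lower. Monocyte and macrophage markers had 4 higher and 12 lower (median -0.33), and 1 and 15 without both libraries. T and NK cell markers had 2 and 11 (-0.45), and 6 and 7 without both. Not all marker lists were on that side. Dendritic cell markers had 9 higher and 3 lower (median 0.43), which became 3 higher and 8 lower (-0.46) without Selp high-derived replicate 3, and platelet markers had 5 and 5. Erythroid markers had 1 higher and 14 lower, and 12 and 3 without Selp low-derived replicate 2. Among defining genes, the basophil protease gene Mcpt8 was at 1.87, 47.7 and 0.901 CPM in Selp low-derived and at 0, 0 and 0.0674 CPM in Selp high-derived libraries. The part of such cells in the results below was not tested. In bulk RNA, fewer cells of a type and less RNA per cell cannot be told apart.

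Selp itself, by which the input was sorted, was at 243, 289 and 275 CPM in Selp low-derived and at 303, 315 and 284 CPM in Selp high-derived replicates 1 to 3. The groups overlapped, and the log2 change was 0.16 ± 0.14 (SE, n = 3 against 3, edgeR adjusted p = 0.98), and 0.09 without Selp low-derived replicate 1. SEs of log2 changes come from the edgeR fit over all 14 libraries and draw on the spread in all of them. Before transplantation Selp had stood at 566 ± 96.7 CPM in Selp low and 701 ± 73.4 CPM in Selp high cells (SD, n = 4 each). Genes of the sort were at levels that match the gate in both groups. Kit, the stem cell factor receptor c-Kit, was at 1075, 947 and 1186 CPM in Selp low-derived and 1374, 1480 and 1392 CPM in Selp high-derived cells. Every Selp high-derived library was thus above every Selp low-derived one, by 0.40 ± 0.16 on the log2 scale (edgeR adjusted p = 0.98). Before transplantation the Kit difference had the other sign (-0.19), and the stages differed by 0.60 ± 0.21 (edgeR adjusted p = 0.879). Slamf1, the gene of CD150, was at 95.0 to 118 CPM in Selp low-derived and 97.6 to 122 CPM in Selp high-derived cells, and Ly6a, the gene of Sca-1, at 238 to 385 and 264 to 288 CPM. Cd48, gated out, was at 9.92 to 15.3 and 5.67 to 10.9 CPM, and the T cell gene Cd3e at 0.686 CPM or less in all 6 libraries. Of other lineage genes gated out, Itgam (Mac-1) was at 1.51 to 9.35 CPM and Ly6g (Gr-1) at 0.391 to 29.4 CPM over the 6 libraries, both highest in Selp low-derived replicate 2.

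Among other stem cell genes, Hlf, a transcription factor of HSC maintenance, was at 249, 289 and 293 CPM in Selp low-derived and 339, 310 and 346 CPM in Selp high-derived cells (0.26 ± 0.10). Here and below, values in brackets after the libraries are log2 changes ± SE, and the 3 Selp low-derived libraries come first. Tal1, a factor of HSC emergence and erythroid fate, went the other way, at 47.3, 54.5 and 44.8 CPM against 35.5, 35.5 and 40.1 CPM (-0.40 ± 0.16). Of the 22 genes of an LT-HSC list, 12 were higher and 10 lower in Selp high-derived cells, with a median of 0.02 beside 0.0063 over all 16878 genes tested (-0.02 to 0.09 with 1 library left out at a time). In 5 of them the groups did not overlap toward higher values and in 1 toward lower. Over all genes the shares without overlap were 4.79% higher and 5.55% lower (1745 genes, 10.3% in all). The 25 genes of the Kit pathway, adaptors and brakes included, split into 12 higher and 13 lower with a median of -0.0029, close to the median of all genes.

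By edgeR, no gene passed an adjusted p under 0.05 in either direction (0 of 16878, 0%), and limma voom called 0 as well. At an unadjusted p under 0.05 edgeR had 271 genes higher (1.61%) and 494 lower (2.93%) in Selp high-derived cells, 765 in all (4.53%). The smallest edgeR adjusted p was 0.397, for Sun2 and Cd151, and all other genes named here had 0.484 or more. DESeq2 called 25 genes (0.148%), of which 3 were higher (0.0178%) and 22 lower (0.13%). Of these 25, 18 had a mean of at least 1 log2 CPM over the 6 libraries. The others include genes read almost only in one group. Igkv14-126, an antibody light chain segment, had 25 reads over the Selp low-derived libraries and 0 over the others, and at 3 reads for the empty group it was at least 8.68-fold lower. Of the 25 reads 21 were in Selp low-derived replicate 2, and that bound rests on this library. The RNA gene 4933417C20Rik had 43 and 0 reads, at least 14.9-fold lower by the same measure. Prss34, a serine protease gene of mast cells and basophils, had 2458 and 2 reads, and 83.1 CPM in Selp low-derived replicate 2 beside 4.32 CPM or less elsewhere.

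**Figure D1:**
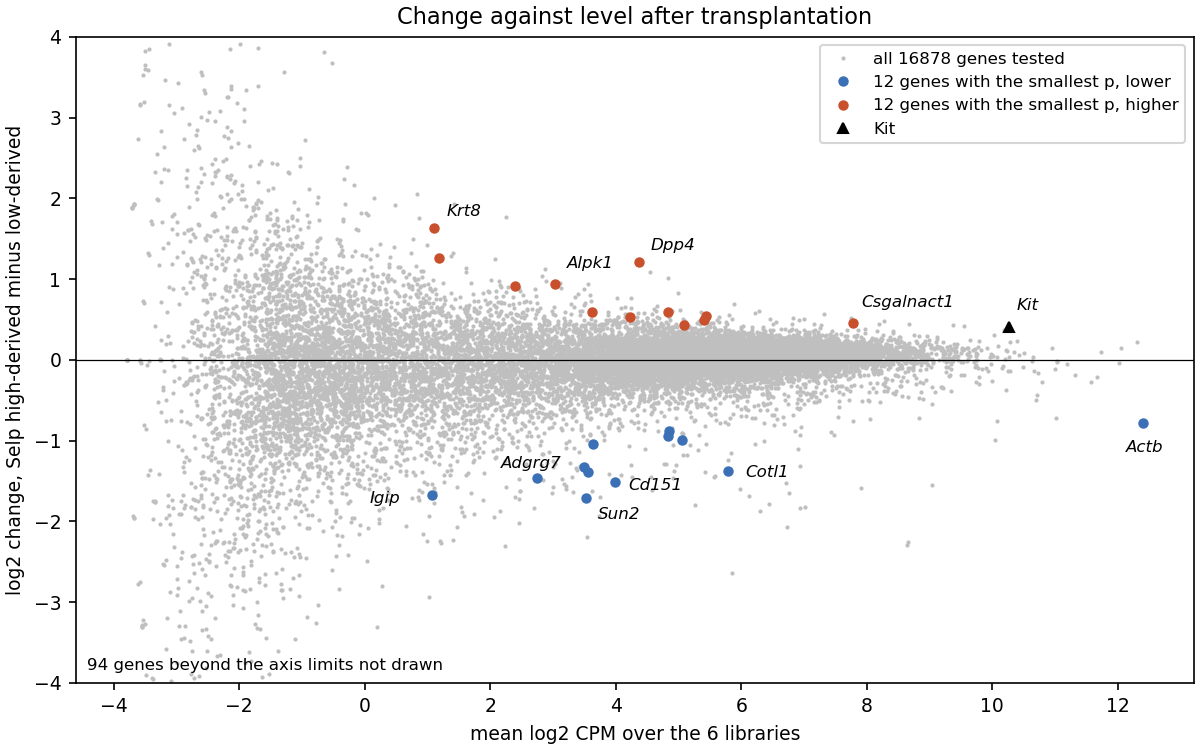
Log2 change of Selp high-derived over Selp low-derived cells (vertical axis) against mean log2 CPM over the 6 libraries (horizontal axis), one point for each of the 16878 genes tested. Blue and orange points are the 12 genes in each direction with the smallest edgeR p and no overlap of the groups. They lie from low levels (Igip, 1.07 log2 CPM) upward, with Actb (-0.78) far to the right, and 94 genes beyond the axis limits are not drawn.

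Sun2, Cd151 and Adgrg7 are described with the gene families they belong to. Sun2 (ENSMUSG00000042524.14, chromosome 15, 79724070 to 79742536, minus strand, GRCm38), the inner membrane end of the LINC bridge, was at 16.2, 30.5 and 17 CPM in Selp low-derived and at 5.23, 6.85 and 7.34 CPM in Selp high-derived replicates 1 to 3. The groups were far apart, and the lowest Selp low-derived library had more than the highest Selp high-derived one. The log2 change was -1.71 ± 0.29 (SE, edgeR adjusted p = 0.397, DESeq2 adjusted p = 5.76e-05). Emd, the gene of the nuclear envelope protein emerin, was at 38.3, 101 and 32.3 CPM against 27.4, 29.3 and 19.2 CPM (-1.18 ± 0.34). Most of that difference lay in Selp low-derived replicate 2, without which it was -0.48. Over the LINC and nuclear lamina list, 23 genes were tested and 15 had higher and 8 lower values (median 0.03). Among the higher was Lemd3, an inner membrane regulator of SMAD signalling, at 20.2, 17.1 and 21.7 CPM against 27.9, 25.3 and 25.6 CPM (0.42 ± 0.19, and 0.27 without both libraries that stood apart).

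Cd151 (ENSMUSG00000025510.14, chromosome 7, 141467392 to 141471473, plus strand), a tetraspanin that binds laminin-binding integrins, was at 23.9, 38.9 and 19.4 CPM against 10.8, 8.11 and 9.90 CPM. The groups did not overlap, and the change was -1.51 ± 0.26 (edgeR adjusted p = 0.397, DESeq2 adjusted p = 7.71e-05). It was the only 1 of 24 tested tetraspanin genes whose groups did not overlap, where they did not for 10.3% of all genes. The list split into 12 higher and 12 lower, with a median of 0.0055. Adgrg7 (ENSMUSG00000022755.4, chromosome 16, 56724609 to 56795855, minus strand), an orphan adhesion G-protein-coupled receptor, was at 22.2, 17.6 and 18.3 CPM against 10.5, 6.10 and 5.63 CPM. Its change was -1.39 ± 0.27 (edgeR adjusted p = 0.484, DESeq2 adjusted p = 0.00117). Among 17 tested receptors of this family, 6 had lower values without overlap, as Celsr1, a planar polarity cadherin, at 30.0, 35.4 and 32.9 CPM against 20.4, 22.5 and 20.1 CPM (-0.64 ± 0.26). Adgrl4, an endothelial family member, was the 1 with higher values without overlap, at 675, 656 and 613 CPM against 1014, 797 and 783 CPM (0.42 ± 0.18, and 0.27 without Selp high-derived replicate 1). Adgrg1, the gene of the HSC surface receptor GPR56, was at 4306 to 5183 CPM against 4928 to 5883 CPM, with overlap. The family's median was -0.16, with 7 higher and 10 lower. Of all genes 4.79% were higher and 5.55% lower without overlap.

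Actb was described with genes of the actin cytoskeleton. Actb (ENSMUSG00000029580.14, chromosome 5, 142903115 to 142906754, minus strand), cytoplasmic beta-actin, was at 7798, 7291 and 6253 CPM in Selp low-derived and 3927, 4026 and 4467 CPM in Selp high-derived cells. No libraries overlapped, and the change was -0.78 ± 0.17 (edgeR adjusted p = 0.615, DESeq2 adjusted p = 0.0193). Actb has many processed copies in the genome, so its counts are uncertain where reads match several places. Cotl1, the gene of an F-actin-binding protein, was at 87.5, 125 and 62.0 CPM against 41.9, 28.8 and 35.0 CPM (-1.38 ± 0.32). The formin gene Diaph1, whose product extends actin filaments, was at 108, 183 and 106 CPM against 84.0, 77.1 and 82.3 CPM (-0.71 ± 0.18, and -0.40 without Selp low-derived replicate 2). Calm3, 1 of the calmodulin genes, was at 228, 301 and 193 CPM against 152, 148 and 143 CPM (-0.70 ± 0.17). Of 40 tested actin genes 10 had higher and 30 lower values, but the median was only -0.05. The groups did not overlap in 4 with lower and 2 with higher values (5.55% and 4.79% of all genes). Without both libraries that stood apart, 16 were higher and 24 lower.

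Chromatin and signalling genes were also among the lower ones. Epc1, a subunit of the NuA4 histone acetyltransferase complex, was at 34.9, 43.8 and 39.4 CPM against 24.7, 22.4 and 16.9 CPM (-0.88 ± 0.19). Kat5, the acetyltransferase of the same complex, had the reverse pattern, at 33.4, 27.9 and 26.5 CPM against 40.6, 38.5 and 39.4 CPM (0.43 ± 0.13). Sap130, of the Sin3 deacetylase complex, was at 35.2, 48.0 and 36.3 CPM against 19.2, 22.2 and 20.5 CPM (-0.95 ± 0.21). None of these 3 pairs of groups overlapped. The coregulator gene Tcf20 had 13.5 to 18.4 CPM against 6.36 to 7.82 CPM (-1.14 ± 0.27). The insulin receptor gene Insr was at 38.5, 55.5 and 48.2 CPM against 25.4, 21.0 and 24.9 CPM (-1.0 ± 0.23, edgeR adjusted p = 0.615, DESeq2 adjusted p = 0.0272). Stk11, the gene of the energy-sensing kinase LKB1, was at 23.6, 53.3 and 22.7 CPM against 13.7, 14.1 and 8.59 CPM (-1.45 ± 0.34, and -0.93 without Selp low-derived replicate 2). Foxo3, a transcription factor of HSC quiescence restrained by insulin signalling, was at 24.8, 36.6 and 19.4 CPM against 17.1, 16.1 and 14.4 CPM (-0.76 ± 0.22, and -0.48 without that library). In each of the 3, every Selp high-derived library was below every Selp low-derived one.

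The remaining leading lower genes had mixed roles. Igip, an IgA-inducing protein gene, was at 2.64, 4.91 and 3.52 CPM against 1.42, 0.925 and 1.11 CPM (-1.67 ± 0.32), a low level in all libraries. Clec11a, the gene of a secreted growth factor for blood and bone progenitors, was at 21.1, 20.2 and 12.7 CPM against 9.85, 9.29 and 7.11 CPM (-1.04 ± 0.23). Ccnj, of the cyclin family, had 14.7 to 21.6 CPM against 6.60 to 8.15 CPM (-1.33 ± 0.30). Hsd17b11, a lipid droplet dehydrogenase gene, had 8.02 to 18.3 CPM against 2.90 to 5.42 CPM (-1.47 ± 0.34, and -0.98 without Selp low-derived replicate 2). Ubxn2b, of a cofactor of the ATPase p97, differed less but evenly, with 33.3 to 37.5 CPM against 25.1 to 26.1 CPM (-0.47 ± 0.12). Stard4, a sterol carrier gene, was as even, at 111, 113 and 117 CPM against 64.6, 75.5 and 72.1 CPM (-0.68 ± 0.16).

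Higher values in Selp high-derived cells were mostly smaller in size, and the smallest p belonged to Csgalnact1. Csgalnact1 (ENSMUSG00000036356.15, chromosome 8, 68356781 to 68735146, minus strand), which starts chondroitin sulfate chains, was at 188, 183 and 190 CPM in Selp low-derived and 249, 254 and 265 CPM in Selp high-derived cells. Libraries within each group lay close together, and the change was 0.45 ± 0.10 (edgeR adjusted p = 0.615, DESeq2 adjusted p = 0.0229). Ext1, the heparan sulfate polymerase gene, was at 15.4, 14.5 and 16.6 CPM against 22.7, 21.7 and 22.7 CPM (0.53 ± 0.15). Plod1, a lysyl hydroxylase gene for collagen, had 20.4 to 27.4 CPM against 33.4 to 37.8 CPM (0.59 ± 0.18). Itgb3, the beta subunit of the platelet fibrinogen receptor and the vitronectin receptor, was at 38.6, 42.3 and 44.6 CPM against 55.1, 62.0 and 64.4 CPM (0.53 ± 0.17). None of these 4 genes had overlapping groups. Of 19 integrin genes 12 had higher and 7 lower values, and Itgb3 was the 1 with higher values without overlap. In 2 the values were lower without overlap, as Itgb5, at 6.59, 10.0 and 9.48 CPM against 5.90, 5.84 and 2.32 CPM (-0.89 ± 0.45, and -0.59 without Selp high-derived replicate 3). The integrin median was 0.10, and -0.16 without Selp high-derived replicate 3 (9 higher, 10 lower). Of all genes 4.79% were higher and 5.55% lower without overlap.

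Dpp4, the gene of the surface peptidase CD26 that trims the chemokine CXCL12, was at 13.9, 10.2 and 18.0 CPM against 47.2, 27.8 and 22.1 CPM (1.21 ± 0.34). The highest value was in Selp high-derived replicate 1, and without both libraries that stood apart the change was 0.64. Alpk1, a kinase gene that senses bacterial sugars, was at 6.85, 4.62 and 6.22 CPM against 13.2, 11.3 and 9.33 CPM (0.94 ± 0.24). Asb4, of a ubiquitin ligase adaptor, had 2.82 to 4.36 CPM against 6.68 to 7.98 CPM (0.92 ± 0.22, DESeq2 adjusted p = 0.0355). Slc44a1, a choline transporter gene, had 33.4 to 41.2 CPM against 45.1 to 61.3 CPM (0.49 ± 0.15, 0.31 without Selp high-derived replicate 1 and 0.27 without both libraries). Msl3l2, Lyplal1, Lynx1 and Krt8 completed the 12 leading genes, with changes of 0.54 ± 0.16, 0.59 ± 0.18, 1.26 ± 0.37 and 1.63 ± 0.50. That of Lyplal1 was 0.39 without both libraries. The last 2 genes were at 4.98 CPM or less in every library. Prss41, a serine protease gene and the third that DESeq2 called as higher, had 27 reads in Selp low-derived and 155 in Selp high-derived libraries (2.39 ± 0.56).

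**Figure D2:**
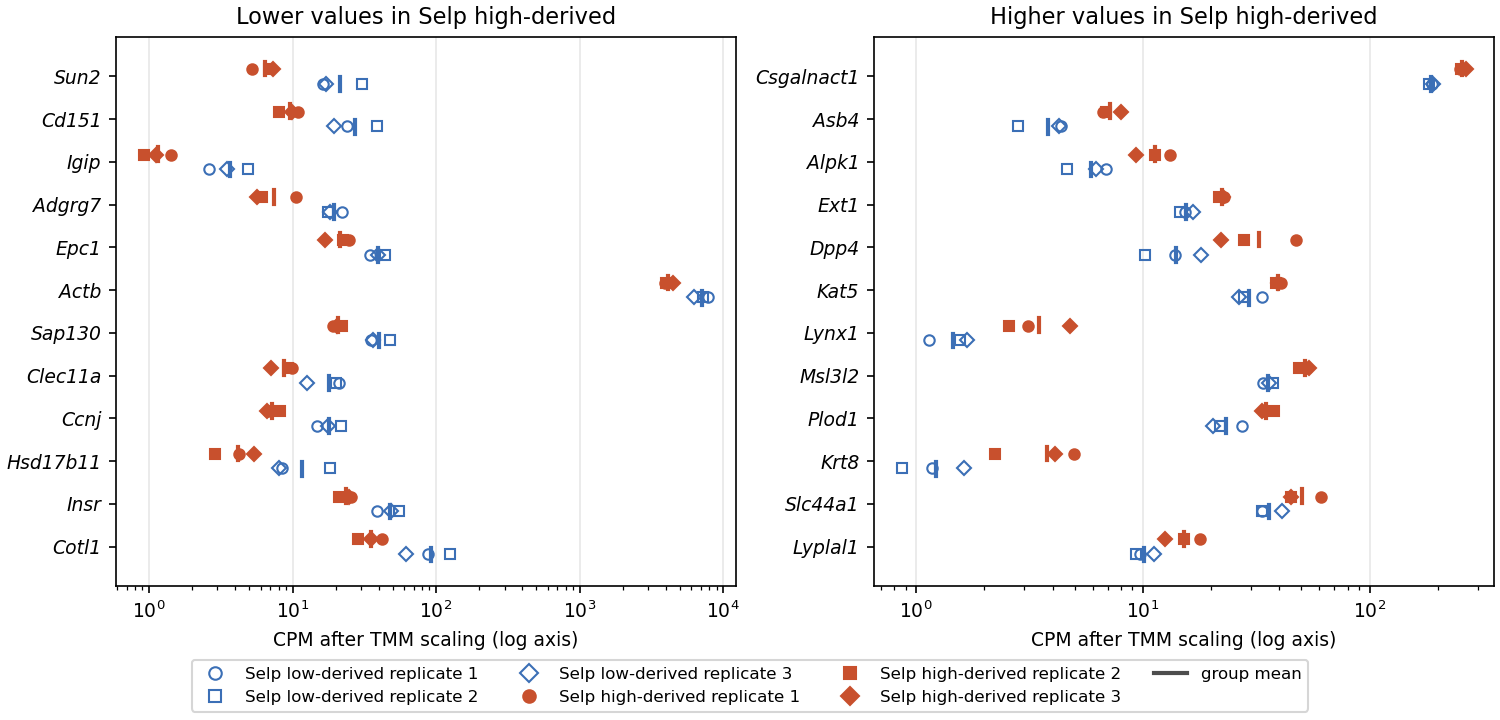
CPM after TMM scaling (log axis) of the 12 leading genes with lower (left) and higher (right) values in Selp high-derived cells, with 1 marker per library, open blue for Selp low-derived and filled orange for Selp high-derived, and a bar at each group mean. The groups do not overlap for any of these genes, by the rule that chose them, and Selp low-derived replicate 2 (open square) is often the outermost open marker, as at 30.5 CPM for Sun2.

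Levels before transplantation were set beside those of the derived groups. Sun2 stood at 6.53 ± 0.74 CPM in Selp low and 6.41 ± 1.82 CPM in Selp high cells (SD, n = 4 each), and at 6.47 ± 1.11 CPM in Selp high-derived cells, against 21.2 ± 8.04 CPM in Selp low-derived ones (SD, n = 3 each). In the same groups and order, Cd151 had 11.8 ± 2.30, 11.1 ± 1.78, 9.62 ± 1.39 and 27.4 ± 10.2 CPM. Adgrg7 had 9.49 ± 1.74, 9.22 ± 1.87, 7.40 ± 2.68 and 19.4 ± 2.45 CPM, so that for all 3 genes the Selp low-derived mean was the highest. Csgalnact1 was the mirror image, at 277 ± 32.7, 280 ± 10.5 and 256 ± 8.09 CPM in the first 3 groups and 187 ± 3.47 CPM in Selp low-derived cells. Without both libraries that stood apart, the changes between derived groups were -1.23 for Sun2, -1.27 for Cd151, -1.80 for Adgrg7, -0.73 for Actb and 0.45 for Csgalnact1. Over the 12 leading lower genes, the mean of the Selp low-derived group was the highest of the 4 groups in 12, and over the 12 leading higher genes it was the lowest in 12. Among all genes tested it was the highest in 24.7% and the lowest in 25.4%. The Selp high-derived mean was the lowest of the 4 in 9 of the first set and the highest in 3 of the second (27% and 26.3% of all genes). These genes were chosen for their difference between the derived groups, which places an outermost mean in one of them, so the counts are a description.

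The Selp difference before transplantation was near 0 for several of the leading genes and had the other sign for others. It was -0.03 ± 0.25 for Sun2, -0.08 ± 0.22 for Cd151, -0.04 ± 0.23 for Adgrg7 and 0.02 ± 0.09 for Csgalnact1 on the log2 scale (SE). For Igip it was 0.58 ± 0.27, and for 4933417C20Rik, a gene with few reads, 0.46 ± 0.62, on the other side than after transplantation. For Actb it was -0.36 ± 0.15, on the same side. The difference between the stages was tested directly in the same fit. It was -2.25 ± 0.42 for Igip, -1.69 ± 0.38 for Sun2, -1.43 ± 0.34 for Cd151, -1.34 ± 0.35 for Adgrg7, -0.42 ± 0.23 for Actb and 0.44 ± 0.14 for Csgalnact1, with an edgeR adjusted p of 0.879 for each. By edgeR 0 of 16878 genes passed for this difference, where 874 had an unadjusted p under 0.05 (5.18%). DESeq2 called 11 (0.0652%) and limma voom 0. Before transplantation cells had been sorted on P-selectin and came from old marrow, so gate, host age and transplantation differ together between the stages and cannot be told apart.

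**Figure D3:**
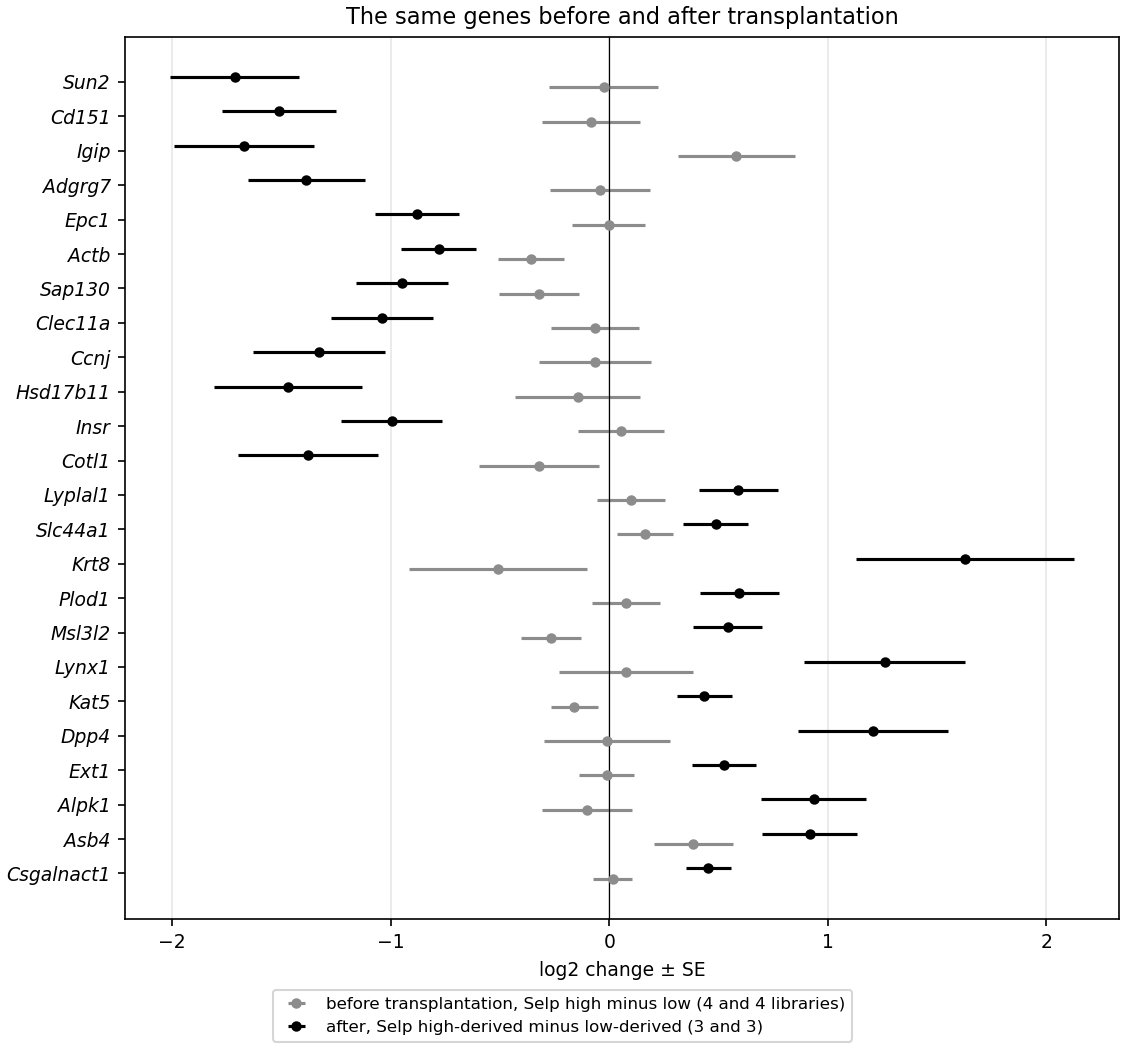
Log2 change with its SE for the 24 leading genes, in grey for Selp high minus Selp low cells before transplantation (4 and 4 libraries) and in black for Selp high-derived minus Selp low-derived cells (3 and 3 libraries). The grey point of Sun2 lies near 0 (-0.03 against -1.71), that of Igip lies on the other side (0.58 against -1.67), and Actb (-0.36 against -0.78) has both on the same side.

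Genes of mature and primed blood cells had the largest list medians. In the myeloid priming list of 23 tested genes, the Selp high-derived values were lower for 21 (median -0.80), 9 without overlap. Of all genes 48.8% were lower, and 5.55% lower without overlap. Elane, the neutrophil elastase gene that is on in committed myeloid progenitors, was at 165, 182 and 137 CPM against 29.3, 25.6 and 77.3 CPM (-1.87 ± 0.78, edgeR adjusted p = 0.98). Mpo, myeloperoxidase, was at 180, 213 and 206 CPM against 58.0, 36.5 and 97.1 CPM (-1.64 ± 0.89). For both, all 3 Selp low-derived libraries were above all 3 others, and without both libraries that stood apart the changes were -1.56 and -1.54. Lyz2, lysozyme, was at 1094, 2016 and 1199 CPM against 760, 803 and 984 CPM (-0.76 ± 0.49), and -0.43 without Selp low-derived replicate 2. S100a8, of the mature neutrophil, had 521, 3224 and 245 CPM against 72.4, 347 and 394 CPM (-2.30 ± 1.25), with overlap, and -0.50 without that library. The list's median ran from -1.22 to -0.51 with 1 library left out at a time, and was -0.28 without both (5 higher, 18 lower). Before transplantation 4 of its genes were higher and 19 lower in Selp high cells (median -0.29), where 52.7% of all genes were lower. Elane was at -0.75 ± 0.66 and Mpo at -0.86 ± 0.75 at that stage. After transplantation the list averaged 5.57, 6.15 and 5.66 log2 CPM against 4.73, 4.88 and 5.36. The summed neutrophil markers above were also highest in Selp low-derived replicate 2 and lowest in Selp high-derived replicate 1. But their sum in Selp low-derived replicate 3 (2804 CPM) was below those in Selp high-derived replicates 2 and 3 (3076 and 3184 CPM). Lyz2 is on both lists, and the part of the neutrophil markers in the myeloid list was not tested.

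Several other lists changed with the libraries that were left in. Of 41 lists, mature cell markers included, 22 kept the sign of their median with each library left out in turn and 19 did not, 10 of them changing sign without Selp low-derived replicate 2. Immediate early genes, which respond within minutes to a stimulus, were at a median of -0.77 (3 higher and 25 lower of 28), and 0.20 (19 higher and 9 lower) without that library. Fos, a subunit of the AP-1 factor, was at 13.8, 1321 and 37.4 CPM against 14.6, 186 and 19.9 CPM. The change of -2.64 ± 1.31 turned to 1.52 without it. Fosb, at 1.03, 23.7 and 2.40 CPM against 0.604, 2.52 and 0.539 CPM, went from -2.93 ± 1.07 to -0.51. Erythroid genes (4 higher and 16 lower of 20, median -0.38) turned to 0.14, and lymphoid priming genes (6 and 12 of 18, -0.25) to 0.07. Proliferation lists depended on more than 1 library. S-phase genes (28 higher and 8 lower of 36, median 0.10) and G2 and M-phase genes (33 and 5 of 38, 0.16) had medians of -0.09 and -0.07 without that library, with 31 of 36 and 26 of 38 lower. Without Selp low-derived replicate 1 the medians were 0.41 and 0.49, with 34 of 36 and 37 of 38 higher, and without Selp high-derived replicate 3 that of the G2 and M-phase genes was -0.06 (22 lower). Before transplantation the G2 and M-phase genes had 1 higher and 37 lower values (median -0.55) in Selp high cells, where 52.7% of all genes were lower.

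Translation and respiration genes mostly had lower values as well, by amounts that differed with the library left out. Of 84 cytosolic ribosomal protein genes tested, 81 had lower values (median -0.49), 21 without overlap. Of all genes 48.8% were lower, and 5.55% lower without overlap. Their average was between 6.23 and 6.67 log2 CPM in 5 libraries and 7.33 in the remaining one, Selp low-derived replicate 2. Without it 81 were lower, with a median of -0.17. Rpl23, at 92.3, 206 and 82.1 CPM against 74.1, 67.0 and 75.5 CPM, went from -0.81 ± 0.31 to -0.27, and ribosomal genes have many processed copies, so their counts are uncertain. Nuclear OXPHOS genes had 65 of 77 lower (median -0.19, with -0.34 to -0.10 as 1 library was left out at a time), and mitochondrial ribosomal protein genes 63 of 77 (-0.11, with -0.205 to -0.02). The latter were nearly even without Selp low-derived replicate 1 (34 higher, 43 lower). Among 8 mitochondrially encoded genes 7 were lower (median -0.51, and -0.08 without Selp low-derived replicate 2), as mt-Nd5, a complex I subunit, at 425, 912 and 466 CPM against 369, 356 and 369 CPM (-0.72 ± 0.33, and -0.29 without it). Of 44 histone genes that passed the filter, of 82, 30 were lower (median -0.31, -0.06 without it and -0.04 without Selp low-derived replicate 1). Hist1h4d had 53.1, 73.6 and 30.9 CPM against 23.3, 18.2 and 28.3 CPM (-1.17 ± 0.31) and Hist1h1e 121, 143 and 91.6 CPM against 69.3, 47.4 and 60.5 CPM (-1.01 ± 0.31). Histone genes of the clusters resemble each other, and reads that match several of them may be lost or split. Short genes leaned lower across the whole table. With genes in 5 classes of about equal size by exon length, the median change was -0.13 in the class of the shortest (42 to 1707 bases) and between -0.01 and 0.05 in the other 4. Its part in the ribosomal and histone medians was not tested.

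**Figure D4:**
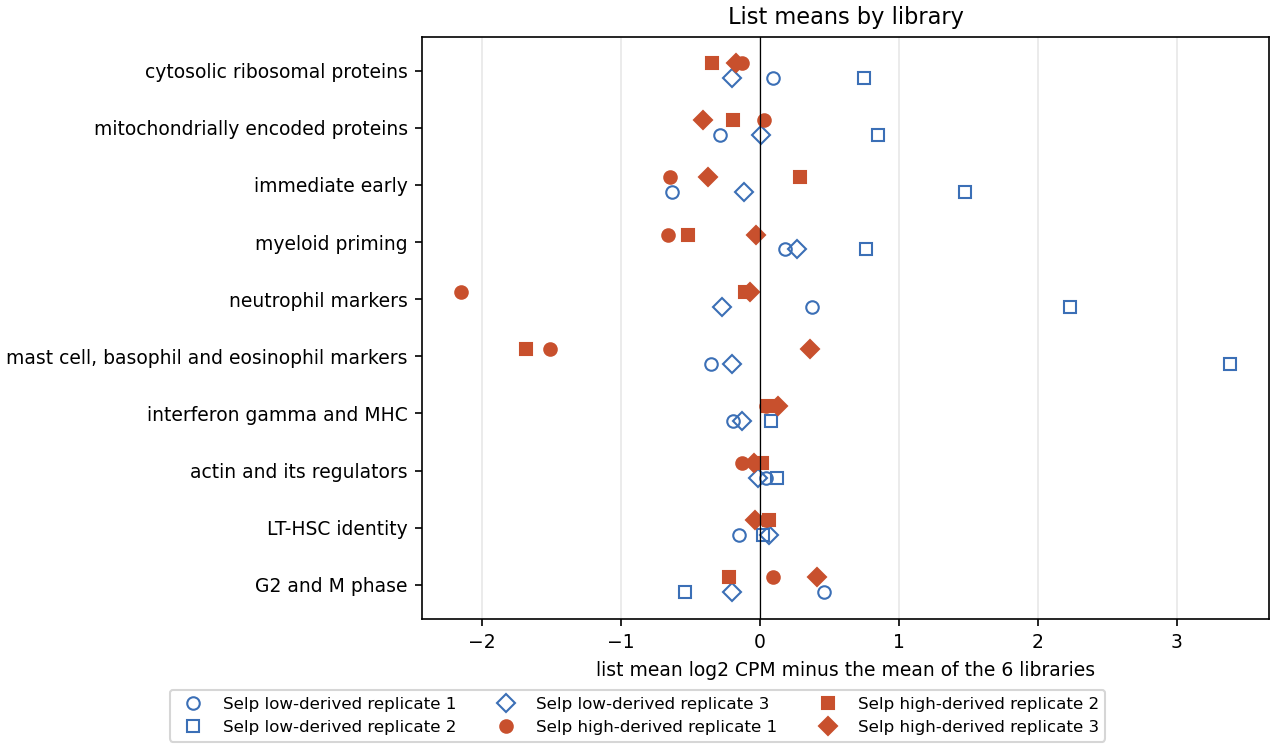
Mean log2 CPM of 10 gene lists in each of the 6 libraries, as the difference from the mean of the 6 (horizontal axis), with open blue markers for Selp low-derived and filled orange for Selp high-derived libraries. Selp low-derived replicate 2 (open square) lies far right for ribosomal, mitochondrially encoded, immediate early, neutrophil and mast cell lists, while the interferon gamma and MHC list varies little between libraries.

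Interferon gamma and MHC genes, which mark and run antigen presentation, leaned the other way. For 33 of 40 tested, the Selp high-derived value was higher (median 0.17), where that of 51.1% of all genes was. In 9 the groups did not overlap toward higher and in 2 toward lower values (4.79% and 5.55% of all genes). H2-D1, a classical MHC class I gene, was at 3847 to 4224 CPM against 4381 to 4640 CPM (0.15 ± 0.16). H2-Q4, a class I gene of the Qa group, had lower values, at 9.45, 16.6 and 9.35 CPM against 7.5, 6.47 and 5.79 CPM (-0.84 ± 0.30, and -0.51 without Selp low-derived replicate 2). MHC genes resemble each other, and their counts are uncertain for that reason. The median stayed between 0.12 and 0.19 with 1 library left out at a time and was 0.21 without both that stood apart (37 higher, 3 lower). Before transplantation it was -0.03. Dendritic cell markers, of which 3 are also on the MHC list, had a median on the same side (0.43, 9 of 12 higher, and -0.46 without Selp high-derived replicate 3), and their part in the MHC list was not tested. H2-Ab1, a class II beta chain gene on both lists, was at 281, 276 and 233 CPM against 321, 351 and 427 CPM (0.48 ± 0.39), without overlap. The type I interferon list had 17 higher and 16 lower (median 0.01), and 23 and 10 (0.12) without Selp low-derived replicate 2.

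Cholesterol synthesis genes had 23 higher and 8 lower of 31 (median 0.14, and 0.04 without Selp low-derived replicate 2). Megakaryocyte genes had 14 higher and 8 lower of 22 (median 0.18, and 0.03 without that library). Of 24 DNA methylation and Polycomb genes 15 had higher values (median 0.04), 3 without overlap, where 4.79% of all genes were. But 9 had higher and 15 lower values without Selp low-derived replicate 2 (-0.09). Tet2, which oxidises methylcytosine, was at 17.9, 17 and 21.9 CPM against 22.2, 23.5 and 23.7 CPM (0.29 ± 0.15), and Asxl1, a Polycomb-associated gene often mutated in clonal blood disease, at 85.6, 71.7 and 91.0 CPM against 99.1, 106 and 94.4 CPM (0.27 ± 0.16, and 0.18 without that library).

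An HSC ageing list, of genes that old HSCs are known to express more than young ones, had no steady direction after transplantation. Of 51 tested, 19 were higher and 32 lower in Selp high-derived cells (median -0.05), 25 and 26 without Selp low-derived replicate 2. Without Selp low-derived replicate 1 there were 12 higher and 39 lower (-0.17), and without Selp high-derived replicate 3 28 higher and 23 lower (0.04). Before transplantation 46 were higher and 5 lower in Selp high cells (median 0.21), where 47.3% of all genes were higher and 52.7% lower. Trpc1, a cation channel gene on this list, was at 7.51, 11.8 and 8.58 CPM against 5.37, 6.68 and 4.85 CPM (-0.72 ± 0.21), and Mt1, a metallothionein, at 76.6, 101 and 61.9 CPM against 58.8, 56.3 and 41.7 CPM (-0.61 ± 0.18). Of 25 quiescence genes 5 were higher and 19 lower, with 1 at a change of 0 (median -0.22, and -0.03 without Selp low-derived replicate 2). Of 31 p53 targets 21 were lower (median -0.16, with -0.27 to -0.07 as 1 library was left out at a time), as Zmat3, an RNA-binding protein gene, with 4.12 to 6.19 CPM against 1.46 to 2.86 CPM (-1.21 ± 0.43). Of 24 cytosolic chaperone genes 16 were lower (median -0.07), 20 without Selp low-derived replicate 2 (-0.14) and 13 without replicate 1 of that group (-0.02), as Hsp90aa1, at 509, 532 and 388 CPM against 369, 314 and 352 CPM (-0.47 ± 0.18). Glycolysis, NF-kB, unfolded protein and TGF-beta lists had medians between -0.05 and 0.06, and those of glycolysis, unfolded protein and TGF-beta genes changed sign with 1 library left out.

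**Figure D5:**
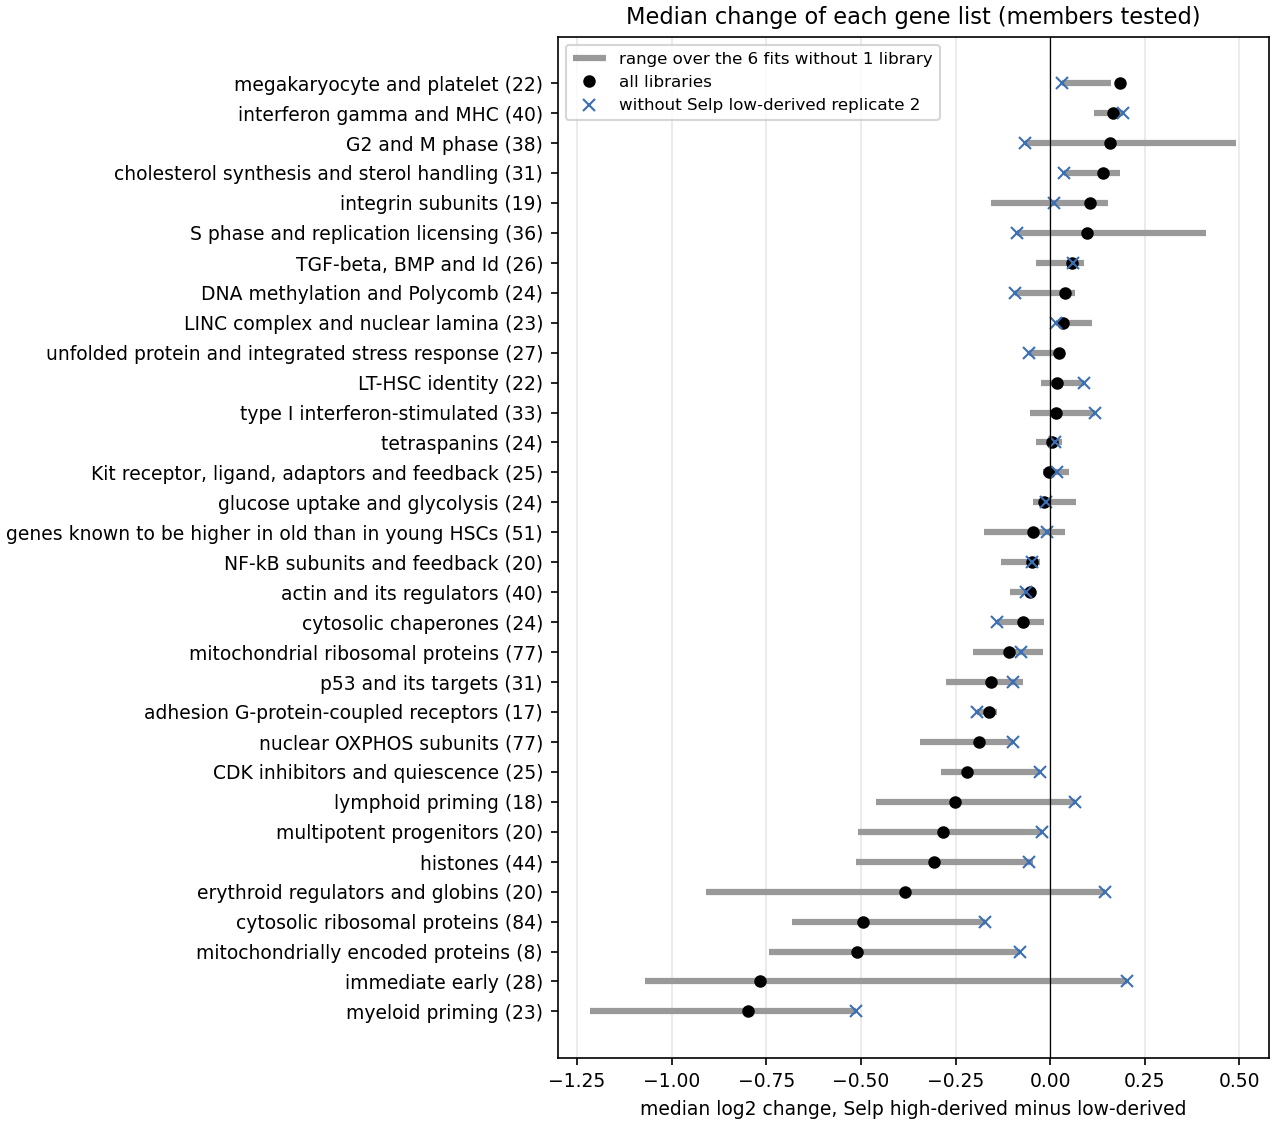
Median log2 change of each gene list, Selp high-derived minus Selp low-derived, with the number of members tested in parentheses. Black points are the medians with all libraries, grey bars the range over the 6 fits that leave out 1 library, and blue crosses the median when Selp low-derived replicate 2 is left out. Here the myeloid priming median stays below 0 throughout (-1.22 to -0.51), the interferon gamma and MHC median above 0 (0.12 to 0.19), and the immediate early one crosses from -0.77 to 0.20.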

How the data were processed

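RNA was made into cDNA with a SMART kit and into libraries by Nextera tagmentation, per the labels' protocols. The deposited files hold read counts for 55450 gene identifiers. The authors used STAR 2.7.0d and the GRCm38 genome, per the submitters' processing notes. Annotation release and counting settings were not stated in these sources. All 55450 identifiers matched GENCODE. The unstranded counts were taken, since sums by strand had a ratio of 0.996 to 0.997, and reads of a gene and of its antisense partner cannot be separated. Reads with no gene were left out: unmapped (3.757 to 5.059%), multimapping (10.683 to 13.443%), outside genes (3.709 to 5.133%) and ambiguous (4.275 to 4.689%).

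The test was edgeR 4.0.16 (R 4.3.3) with TMM factors and the quasi-likelihood test on 4 group means over all 14 libraries (10 residual degrees of freedom, biological coefficient of variation 0.322). The expression filter, with a minimum count of 10, left 16878 genes. Calls needed a Benjamini-Hochberg adjusted p under 0.05. SEs of log2 changes are the size of the change over the square root of the F statistic of the edgeR test. Log2 CPM carry a prior count of 2. DESeq2 1.42.0 and limma 3.58.1 (voom) were alternatives. The fit was tested on simulated data with 200 changed genes. It recovered 48% of 2-fold and 92% of 4-fold changes, with 7 false calls. The changed genes all had a mean of at least 1 log2 CPM over the 14 libraries. Counts were drawn independently around 1 mean per gene, with no library standing apart across many genes. These shares therefore need not hold for the real libraries. No gene list was tested: lists are given by counts and medians. The groups, gene lists and rules were chosen with earlier results of these data known. Genes were named by these rules: the sort genes, Sun2, Cd151, Adgrg7 and Actb; in each direction 12 protein-coding genes with the smallest edgeR p, a mean of at least 1 log2 CPM and no overlap of the groups; genes any tool called; and for each list the 3 members with the smallest p and the 1 with the highest CPM, of which some are described. Same-group libraries differed by more than sampling noise.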

Additional observations from a re-analysis of the deposited data

How the results depend on the processing

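The calls between the derived groups were 0 higher and 0 lower by edgeR, and the same by limma voom, with RLE or upper quartile factors, without the filter, with only the 6 derived libraries, without both libraries that stood apart and without each library in turn (0 to 0). DESeq2 called 3 higher and 22 lower, and the cause of the difference between tools was not tested. For the difference between the stages DESeq2 called 11 genes, edgeR and limma voom 0, and the edgeR count was 0 to 0 with each library left out; with only the 6 derived libraries it could not be fitted. DESeq2 was not run with libraries left out. Deviations from the group means correlated across genes with r of 0.022, 0.025 and -0.051 for derived libraries of equal replicate number. For other pairs r was -0.085 to 0.053. Deviations from a mean of 3 libraries depend on each other, so these values cannot decide whether equal numbers share a source. With the replicate block 2 genes were called as lower and 0 as higher, and neither was among the 69 genes followed below. At an unadjusted p under 0.05, edgeR had 271 higher and 494 lower genes, against 477 and 930 without the filter, 537 and 791 with the replicate block, 115 and 203 without both libraries that stood apart, and 161 to 500 higher and 265 to 767 lower with each library left out. The lowest of these counts came without Selp high-derived replicate 1 (161 higher) and without Selp low-derived replicate 2 (265 lower).

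Among 69 genes named above, all but Cd3e, Itgam and Ly6g, which were not run, 3 changed sign. Ly6a was -0.11, and 0.15 without both libraries that stood apart (-0.26 to 0.13 with each library left out). Slamf1 was 0.02, -0.0046 with only the 6 derived libraries, -0.008 with upper quartile factors and -0.0148 without both (-0.0945 to 0.0874 with each left out). Fos was -2.64, and 2.0 without both (-4.75 to 1.52 with each left out). With 3 libraries a group, log2 differences of low genes such as Igip and Krt8 rest on few reads.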
